A study of Mus musculus with 64 samples.

Results

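The genes described here are 9 interferon response genes of the mouse: Iigp1, Irgm1, Igtp, Gbp2 and Gbp3, which encode interferon-induced GTPases, Isg15, Ifit1 and Ifit3, which are classical targets of type I interferon, and B2m, the light chain of class I antigen molecules. They were chosen by name, as interferon response genes whose signal is carried by single libraries, with earlier results of these same counts in view. All 9 had a row in the count table of 54331 genes, and all 9 were among the 41507 genes that passed the filter on low counts. Their levels are therefore given as a description, with no test of their own, and nothing is supported by how many of them pass a threshold.

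RNA was sequenced from early distal convoluted tubules (DCT), a short stretch of the nephron where the cotransporter NCC, encoded by Slc12a3, takes up salt, dissected from kidneys of male and female mice. Mice ate a control diet or one containing furosemide, which inhibits salt uptake in the thick ascending limb upstream of the DCT, and tubules were taken after 12, 24, 48 or 96 h, with control mice at each time. This gave 16 groups (male or female, control or furosemide, 4 times) of 4 libraries each, 64 in all. All groups, controls included, carry the same transgene (genotype label C57BL/6-Tg (Pvalb-tdTomato)15Gfng/J), in which the parvalbumin gene's regulatory sequence drives a red fluorescent protein, and neither ages nor the furosemide dose are given in the sources used here. The labels number the replicates without saying that each is a separate animal, so p-values measure only the spread between these samples, which may be technical. In tissue of this kind, fewer cells of a type and less RNA per cell cannot be told apart.

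Interferons are cytokines that put cells on guard against viruses and intracellular microbes. Type I interferons act through a receptor of Ifnar1 and Ifnar2 and on genes that carry the interferon-stimulated response element, while interferon gamma acts through Ifngr1 and Ifngr2 and on genes that carry the gamma-activated site, and it also raises the transcription factor Irf1. Immunity-related GTPases such as Iigp1, Irgm1 and Igtp and guanylate-binding proteins such as Gbp2 and Gbp3 assemble on the vacuoles of intracellular microbes and are strongly induced by interferon gamma. Isg15 is a ubiquitin-like protein that is attached to other proteins, Ifit1 binds viral RNA that lacks host-type cap methylation, and Ifit3 is its close relative. B2m holds class I molecules in shape on the cell surface, where they show peptides to cytotoxic T cells, and most nucleated cells make it without any interferon.

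The promoters bear on whether the genes share the sequence through which interferon acts. RefSeq promoters (build GRCm38.p6) of 8 of the 9 genes were searched, and none of Iigp1 was used. The core taken for the interferon-stimulated response element was GAAA, any 2 bases and GAAA again, on either strand. It lay in the 250 bases before the start in at least 1 promoter of 8 of these 8 genes. Of all 32851 promoters of the same length, each counted singly, 2.977% held it. A core of the gamma-activated site, TTCNNNGAA, which reads the same on both strands, lay in 1 of the 8 (Igtp) and in 7.02% of all promoters. A match describes letters only and is no proof of a bound site. The 160 bases before the start of 4 genes are shown, 1 per role or motif arrangement, 5′ to 3′ on the gene's own strand, with the motif matches in capitals.
Igtp, chr11:58199396-58199555, plus strand: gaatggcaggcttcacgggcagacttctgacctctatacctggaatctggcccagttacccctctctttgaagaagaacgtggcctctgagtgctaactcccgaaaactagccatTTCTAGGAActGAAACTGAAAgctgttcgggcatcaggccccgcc
Isg15, chr4:156200819-156200978, minus strand: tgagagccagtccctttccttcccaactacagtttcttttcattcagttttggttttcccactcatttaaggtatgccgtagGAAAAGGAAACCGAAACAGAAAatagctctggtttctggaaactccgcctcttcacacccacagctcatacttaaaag
Ifit3, chr19:34583369-34583528, plus strand: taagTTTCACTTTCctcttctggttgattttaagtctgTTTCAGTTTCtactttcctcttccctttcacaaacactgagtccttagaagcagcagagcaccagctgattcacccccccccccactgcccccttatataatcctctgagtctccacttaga
B2m, chr2:122147527-122147686, plus strand: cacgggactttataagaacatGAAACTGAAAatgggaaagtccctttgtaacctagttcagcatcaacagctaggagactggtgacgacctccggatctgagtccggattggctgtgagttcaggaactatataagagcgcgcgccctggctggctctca
Igtp holds its gamma-activated core 45 bases and its response element core 34 bases before the start. Isg15 holds 3 overlapping cores that begin 78, 72 and 66 bases before the start, and Ifit3 holds 2, at 156 and 122 bases. In B2m the single core lies 139 bases before the start. Among the genes not shown, Irgm1 has cores at 30 and 24 bases, Gbp2 at 59, Gbp3 at 45 and 39 and Ifit1 at 104 and 85. Another promoter of Gbp3 held 0 cores of either motif.

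Across the 64 libraries the 9 genes differed widely in level and in how evenly they were expressed. Levels are CPM, read counts scaled to a common library size, here corrected by the trimmed mean of M-values (TMM), and between genes they are compared per kilobase of exonic length. B2m was far above the rest, with a median of 159.2 CPM per kilobase. Irgm1 (4.09), Ifit3 (3.66), Igtp (3.07) and Isg15 (2.92) followed, then Ifit1 (1.93), Gbp3 (1.202), Gbp2 (0.971) and Iigp1 (0.959), all in median CPM per kilobase. Neighbours in this order overlapped in their ranges over the 64 libraries, except B2m, whose lowest value of 54.4 CPM per kilobase was passed only by Iigp1 (68.9) and Igtp (67.3), each in 1 library. Iigp1, the lowest by this measure, was the most uneven of the 9, with a coefficient of variation of 404% over 64 libraries. That coefficient was 47.2% without male control 12 h replicate 2 and female furosemide 96 h replicate 1, and for Irgm1, the steadiest of the 9 without them, it went from 84.4% to 20.2%.

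Depth ranged from 12.71 to 41.07 M counts per library (median 20.5 M), and the 96 h libraries were deeper (median 32.4 M) than the earlier ones (19.2 M). The defining DCT marker Slc12a3 stood between 2789 and 16695 CPM over the 64 libraries. By the Spearman correlation with their own group over genes with a mean above 10 CPM, 3 libraries stood apart, with medians below 0.75: female control 24 h replicate 3 (0.428), female control 48 h replicate 4 (0.679) and male furosemide 12 h replicate 4 (0.697).

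Male control 12 h replicate 2, a library of a mouse on the control diet, carried the highest interferon signal of the series. Iigp1 measured 401 CPM there, from 8271 counts. The other male controls at 12 h had 7.28, 4.15 and 11.7 CPM in replicates 1, 3 and 4. The next highest of all 64 libraries had 23.6 CPM and the median library 5.59, so that this single library stood 71.8-fold above the median. It supplied 94.5% of the summed Iigp1 level of its group, and the group mean of 106 ± 197 CPM (SD, n = 4) describes none of its libraries.

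The other GTPases of the list were high in the same library. Irgm1 measured 203 CPM in male control 12 h replicate 2 and 25.5, 25.9 and 30.2 CPM in replicates 1, 3 and 4. Igtp, which lies on chromosome 11 as Irgm1 does, measured 136 CPM against 4.25, 3.87 and 6.42 CPM. Gbp2 measured 28.0 CPM against 3.03, 5.71 and 4.09 CPM, and Gbp3, its neighbour on chromosome 3, measured 21.7 CPM against 5.37, 3.40 and 3.09 CPM. Each of these 5 genes had its highest value of all 64 libraries in this one, and the group's other libraries lay far below it. Reads of near-identical members of these families are divided by the quantifier's model, so that single paralogs carry some uncertainty.

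The type I targets were raised there too, but by less and not above every other library. Ifit1 measured 15.997 CPM in male control 12 h replicate 2 and 3.55, 4.39 and 10.1 CPM in replicates 1, 3 and 4, and Ifit3 measured 15.8 CPM against 6.30, 2.97 and 3.91 CPM. Isg15 measured 5.14 CPM against 2.47, 1.51 and 2.74 CPM, below the 5.68 CPM of male furosemide 12 h replicate 3. B2m measured 594 CPM against 160, 149 and 211 CPM, and only female control 24 h replicate 3 was higher by TMM-scaled CPM. All 9 genes were more than 2-fold above the median of the other 15 libraries of 12 h (6.96% of all tested genes). Above all 15 of them were 8 of 9 genes (4.51% of all tested genes). The 9 were chosen with these counts in view, so nothing is read from these shares.

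**Figure D1:**
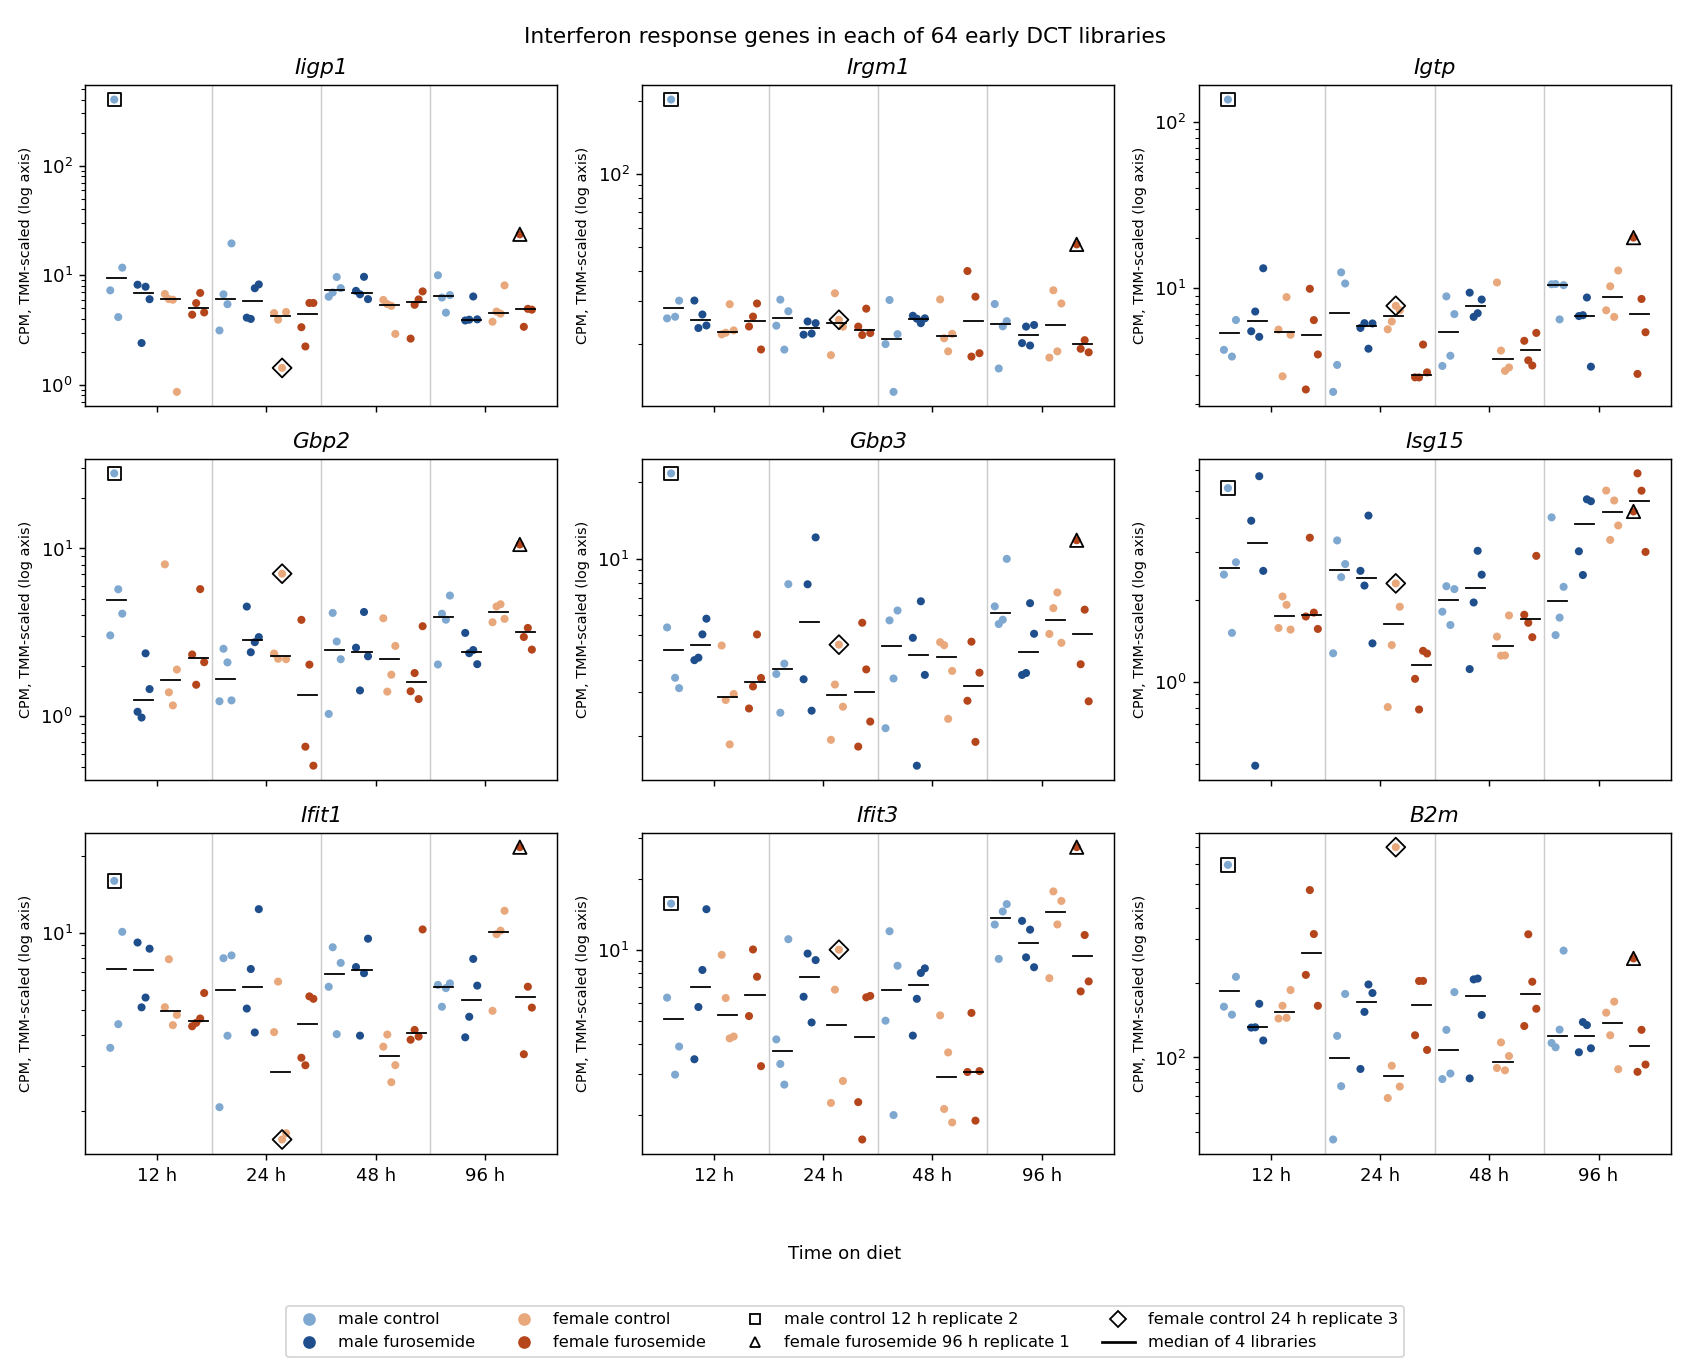
Level of each of the 9 genes in each of 64 libraries (points; y axis TMM-scaled CPM on a log axis, x axis time on the diet; colours mark sex and diet, bars the median of 4 libraries). The square, male control 12 h replicate 2, lies above every other point for Iigp1, Irgm1, Igtp, Gbp2 and Gbp3, and the triangle, female furosemide 96 h replicate 1, is the highest for Ifit1 and Ifit3.

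The rest of the interferon pathway was read in this library from lists of its other genes. Of 119 other tested pathway genes, 46 (38.7%) were above all 15 other libraries of 12 h and none was below all 15. Among the other interferon-induced GTPases, 11 of 20 were above, led by Tgtp1 (359 CPM against a median of 2.51 in the other 15), Tgtp2 (170 against 8.24), Irgm2 (88.0 against 6.25) and Gbp6 (29.8 against 1.78). The genes with which class I molecules are loaded moved likewise, with 13 of 18 above: Psmb8, a subunit of the immunoproteasome, stood at 214 CPM against a median of 16.6, Tap1, a peptide transporter, at 118 against 9.11 and the class I heavy chain H2-K1 at 640 against 128. Of the class II genes, 4 of 7 were above, among them the invariant chain Cd74 at 398 CPM against 151.

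Transcription factors and feedback inhibitors of the pathway stood high as well. Irf1 measured 101 CPM against a median of 8.78 and Socs1, which inhibits Jak kinases, 28.5 against 3.44. Of 17 receptor and signalling genes 5 were above the other 15 libraries, Irf9 and Socs3 among them, while 0 of 9 sensors and adaptors of nucleic acid sensing were. The chemokines Cxcl10 (33.5 CPM against 0.584), Cxcl9 (13.9 against 2.19) and Ccl5 (17.0 against 0.771) were above all 15. Of 38 other type I targets, 9 were above, with a median log2 ratio of 0.60, against 1.30 for the other GTPases and 1.52 for class I presentation. Of the 10 interferons and induced chemokines, 4 were above all 15, the fourth being the interferon gene Ifna1, with 36 counts (1.75 CPM, against at most 0.747 in the others). Ifng had 7 counts in this library and was not above all 15 others.

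Markers of immune cells moved in part with this signal, and their part in it was not tested. Of 12 macrophage and dendritic cell markers, 6 were above the other 15 libraries (Adgre1, C1qa, C1qb, C1qc, Lyz2 and Siglech), and the summed level of the 12 was 220 CPM against 79.0 to 193 in the others. Of 10 lymphocyte markers only Nkg7 was above, and their sum of 90.4 CPM lay within the range of 47.2 to 119. The 7 endothelial markers summed to 1631 CPM, within 372 to 3165, and the 6 fibroblast and pericyte markers to 94.0, within 26.1 to 120. None of these markers was at 0. Of 8 genes of DCT identity, 0 were above or below all others, and their sum of 13035 CPM lay within 9412 to 19872. Markers of some other tubule segments ran lower. The 6 proximal tubule markers summed to 34.0 CPM, below the 35.6 to 345 of the others, with 1 below all 15. Of 6 thick ascending limb markers, 1 was below all 15, with a median log2 ratio of -1.002. Their sum of 5214 CPM lay within 2899 to 10288. Of 5 intercalated cell markers 1 was below, with a median of -0.91 and a sum of 6.01 CPM within 4.08 to 134. The part of these lists in the signal was not tested.

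Female furosemide 96 h replicate 1 carried another, lower signal. Ifit1 measured 21.7 CPM there and 3.35, 6.16 and 5.10 CPM in replicates 2, 3 and 4, and Ifit3 measured 27.3 CPM against 6.70, 11.6 and 7.38 CPM. Both are the highest values of the 64 libraries. Control medians were also higher at 96 h than at 12 to 48 h (Ifit3 13.7 and 4.28 CPM, Ifit1 6.30 and 4.37). Iigp1 measured 23.6 CPM against 3.39, 4.94 and 4.85 CPM, far below the 401 CPM of male control 12 h replicate 2, in which Ifit1 and Ifit3 were lower than here. The other GTPases stood at 51.4 (Irgm1), 20.1 (Igtp), 10.6 (Gbp2) and 11.8 CPM (Gbp3), each above the other 15 libraries of 96 h.

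Neither Isg15 nor B2m led in this library. Isg15 measured 4.22 CPM, within the 1.48 to 5.82 CPM of the other 15 libraries of 96 h, and its highest value of the series lay in the neighbouring replicate 2. B2m measured 250 CPM, within 87.6 to 269. Of the other pathway genes, 40 of 119 (33.6%) were above all 15, against 11.53% of all tested genes, and 4 were below all 15. Among those above, Tgtp1 stood at 22.5 CPM against a median of 5.63 and Ccl5 at 16.5 against 0.784. Here the 12 macrophage and dendritic cell markers had a sum of 200 CPM within 70.8 to 415 and none above the others. The 10 lymphocyte markers had a sum of 42.8 within 41.0 to 109, with Cd3e and Nkg7 above and 2 others below all 15. The 7 endothelial markers had a sum of 1101 within 350 to 1654 with Emcn and Kdr above. The 8 DCT identity genes had a sum of 18946, above 7505 to 15723. Of 6 markers of the thick ascending limb, Slc12a1 and Ptger3 were above the other 15 libraries, and their summed level of 6999 CPM lay within 2198 to 9641. The 5 intercalated cell markers were each more than 2-fold above the median of the other 15, with none above all of them and a sum of 24.6 CPM within 2.90 to 90.5. No marker of these lists was at 0, and their part in the result was not tested.

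**Figure D2:**
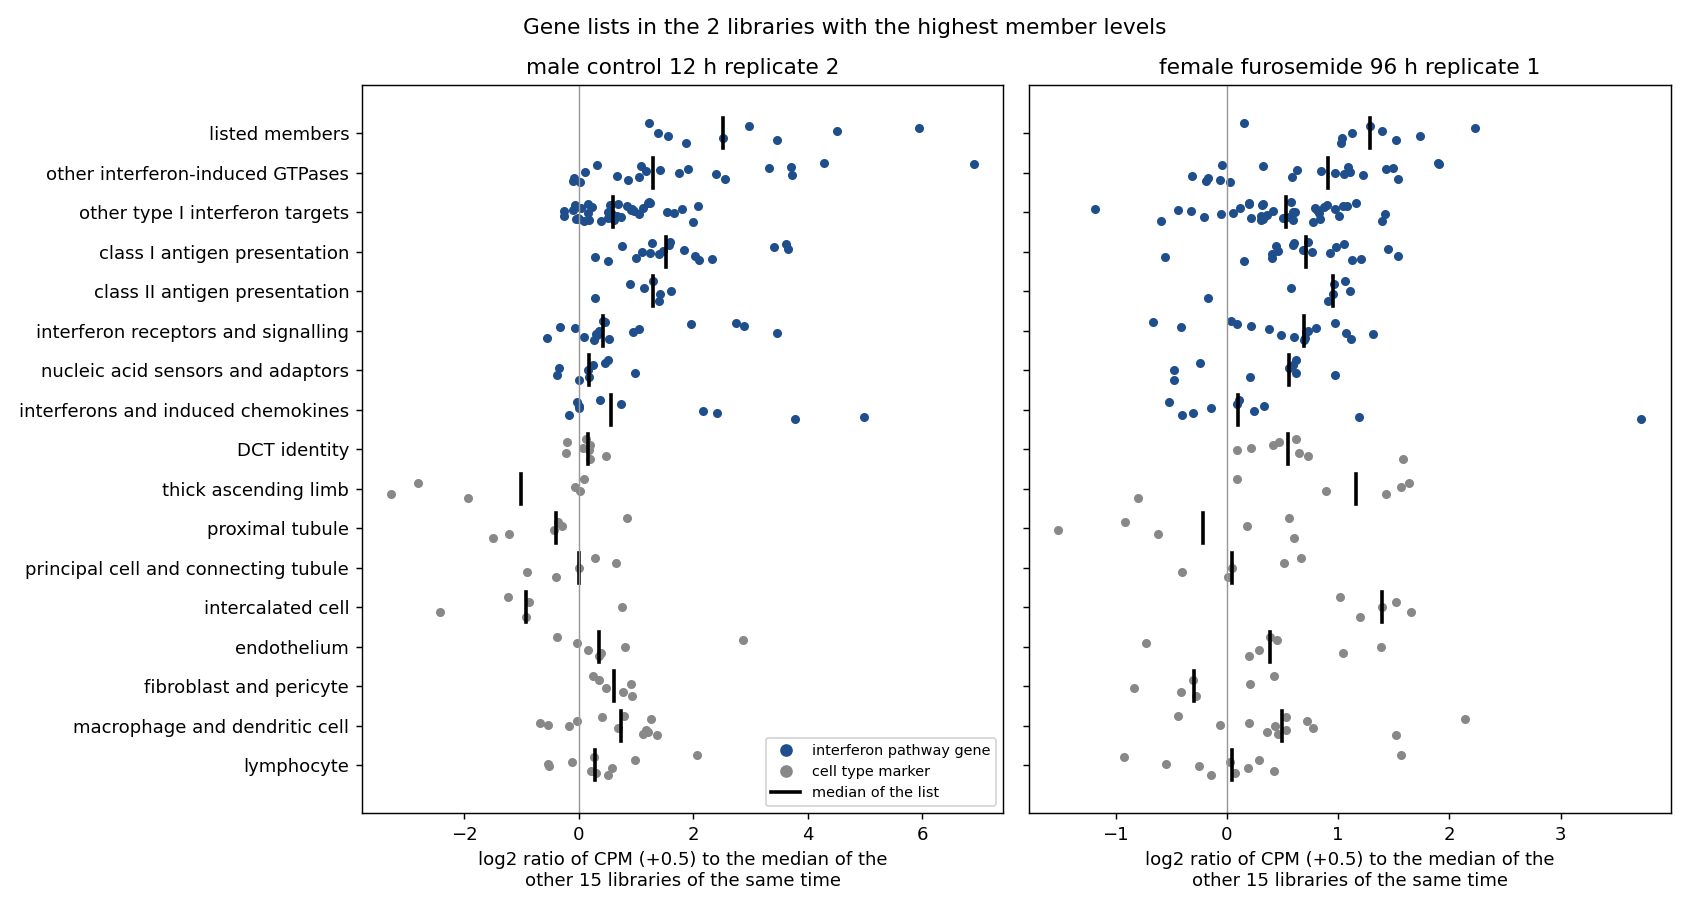
Pathway lists (blue) and cell type marker lists (grey) in the libraries with the highest and the second signal; each point is a gene, the x axis is the log2 ratio of its CPM (plus 0.5) to the median of the other 15 libraries of the same time, and bars are list medians. The listed genes have a median of 2.51 in male control 12 h replicate 2 and 1.29 in female furosemide 96 h replicate 1, and the x axes differ in scale.

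Female control 24 h replicate 3, the library least like its group, held the highest TMM-scaled B2m of the series beside low Iigp1 and Ifit1. Its TMM factor of 0.480 raises all its scaled values. Over all tested genes they summed to 2081960 CPM, against 702575 to 1159590 in the other 15 libraries of 24 h. By CPM of all counts, without that factor, male control 12 h replicate 2 held the highest value of 6 of the 9 genes and this library of 0. TMM-scaled, B2m measured 700 CPM in female control 24 h replicate 3 and 68.7, 92.7 and 76.4 CPM in replicates 1, 2 and 4. Iigp1 measured 1.43 CPM against 4.52, 3.93 and 4.62 CPM, and Ifit1 1.55 against 4.09, 6.45 and 1.64 CPM, both the lowest of the 24 h libraries. Gbp2, at 7.07 CPM against 2.19 to 2.37 CPM, was the only other one of the 9 above the other 15 libraries of 24 h. Of the other pathway genes, 14 of 18 for class I presentation were above the other 15 libraries and 2 were below all of them. For class II presentation 6 of 7 were above. Of 20 other GTPases 8 were below all 15 and only Ifi47 was above. Of 38 other type I targets 13 were above and 13 below all 15. In this library 18433 of 41507 tested genes had no count, 17.4% of genes were above and 10756 genes below all others, 7 of 8 DCT identity genes were above, and Cd3e was among the markers at 0. Of the 12 macrophage and dendritic cell markers, 5 (C1qa, C1qb, C1qc, Cd68 and Csf1r) were above all 15 other libraries and 5 were below all 15. The summed level of the 12 macrophage markers was 363 CPM against 58.4 to 179, and that of the 10 lymphocyte markers, of which 5 were below all 15, was 10.7 against 71.0 to 127. Of 6 markers of the thick ascending limb, 4 were above (sum 12735 CPM against 3093 to 9590). Of 7 endothelial markers 3 were above, Cdh5, Kdr and Tie1, and 1 was below all 15 (sum 649 CPM, within 312 to 855). The part of these in the B2m value was not tested.

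Without male control 12 h replicate 2 and female furosemide 96 h replicate 1, Iigp1 ranged from 0.863 to 19.5 CPM, Irgm1 from 12.72 to 39.98 and Igtp from 2.37 to 13.2. The highest Iigp1 value among them, 19.5 CPM, was in male control 24 h replicate 4, whose group had 3.14, 6.70 and 5.45 CPM in replicates 1, 2 and 3. Iigp1 was otherwise similar in the male controls at 48 h (6.37, 6.96, 9.64 and 7.63 CPM) and at 96 h (9.999, 6.26, 4.56 and 6.60 CPM). Female controls had 6.75, 6.06, 5.98 and 0.863 CPM at 12 h, 5.96, 5.45, 5.25 and 2.92 at 48 h and 3.77, 4.66, 4.46 and 8.09 at 96 h.

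Iigp1 lay in the same range in the furosemide libraries. Males had 8.20, 2.41, 7.86 and 6.05 CPM at 12 h, 4.10, 4.00, 7.61 and 8.25 at 24 h, 7.21, 6.71, 9.68 and 6.06 at 48 h and 3.87, 3.93, 6.40 and 3.96 at 96 h. Females had 4.37, 5.57, 6.90 and 4.58 CPM at 12 h, 3.36, 2.24, 5.59 and 5.58 at 24 h and 2.64, 5.37, 6.02 and 7.12 at 48 h. At each of the 4 times the control and furosemide libraries overlapped for this gene.

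As a description, the correlation of each gene with the mean of the other 8 showed how far the libraries named above set their common pattern. Over 64 libraries, on log2 CPM, it was 0.71 for Iigp1, 0.65 for Irgm1 and 0.79 for Igtp. Without the highest and the second library (n = 62) it was 0.34, 0.17 and 0.56. For Ifit3 it was 0.64 with and 0.69 without them, and without them it was 0.56 for Gbp3 and 0.53 for Ifit1. The points share library and depth, and no p is given.

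Furosemide against control was compared at each time over both sexes, in a fit of all 64 libraries with edgeR's quasi-likelihood test, p-values adjusted by Benjamini and Hochberg over all 41507 genes, and calls at an adjusted p under 0.05. At 12 h 0 of the 9 genes was called, where 0% of all genes were. At 24 h (0.00964% of all genes called), at 48 h (0.00241%) and at 96 h (0.0819%) the count was 0 of 9 as well. At an unadjusted p under 0.05 the counts were 4 lower at 12 h, 1 higher at 48 h and 0 at 24 and 96 h. Of all 41507 genes 3663, 3000, 3926 and 1439 had such a p at 12, 24, 48 and 96 h. DESeq2 called 1 of 9 at 12 h (Iigp1) and 0 later, and limma voom 0 at each time.

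At 12 h most of the low values depended on 1 library, that of Gbp2 only in part. For Iigp1 the log2 fold change was -1.99 (SE 0.49), from a mean of 5.74 CPM in 8 furosemide and 55.5 CPM in 8 control libraries, and without male control 12 h replicate 2 it was -0.10. Igtp went from -1.14 (SE 0.43) to 0.34, Irgm1 from -0.71 (SE 0.26) to -0.02 and Gbp2 from -1.45 (SE 0.42) to -0.82. The median of the 9 genes was -0.30, against 0 over all genes, and 0.24 without that library, where 3 of 9 values were below 0 in place of 7. With all libraries Isg15 (0.17, SE 0.32), Ifit3 (0.13, SE 0.36), Ifit1 (-0.23, SE 0.33) and B2m (-0.08, SE 0.33) lay within 1 SE of 0. Without male control 12 h replicate 2 Ifit3 was 0.49 and Isg15 0.37, and without the 3 libraries that stood apart Ifit3 was -0.10. In males Gbp2 held 0.983 to 2.37 CPM in the furosemide libraries and 3.03 to 5.71 CPM in the controls other than replicate 2. The share of all tested genes apart in this way was not counted, so nothing is read from it.

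At 24 h the log2 fold changes ran from -0.69 (Igtp, SE 0.43) to 0.36 (Ifit1, SE 0.33), with a median of -0.07 against -0.04 over all genes. Without female control 24 h replicate 3 that median was 0.29, B2m went from -0.01 (SE 0.33) to 0.82 and Gbp2 from -0.07 to 0.29. At 96 h they ran from -0.28 (Igtp, SE 0.42) to 0.38 (Isg15, SE 0.31), with a median of -0.14 against 0.01. Without female furosemide 96 h replicate 1, Iigp1 went from 0.11 (SE 0.48) to -0.42 and Ifit1 from -0.05 (SE 0.32) to -0.50. The 9 values then ran from -0.63 (Igtp) to 0.39 (Isg15), with a median of -0.47, and 8 of 9 were below 0 in place of 6.

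B2m at 48 h had the value farthest from 0 relative to its error outside the 12 h comparison. In females at 12 h furosemide libraries had 215, 471, 313 and 161 CPM and controls 143, 161, 144 and 187 CPM, which overlap. At 48 h male controls had 81.9, 129, 86.2 and 183 CPM and male furosemide libraries 82.4, 206, 208 and 148 CPM, which overlap. Female controls had 90.7, 115, 88.8 and 101 CPM and female furosemide libraries 134, 313, 202 and 157 CPM, which do not overlap. How many of all tested genes were apart in the same way was not counted, so nothing is read from this. The log2 fold change was 0.72 (SE 0.33) over both sexes and 1.02 (SE 0.47) in females, where 0% of all genes were called, and neither was called. Leaving out single libraries moved the both-sex value between 0.58 and 0.86.

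**Figure D3:**
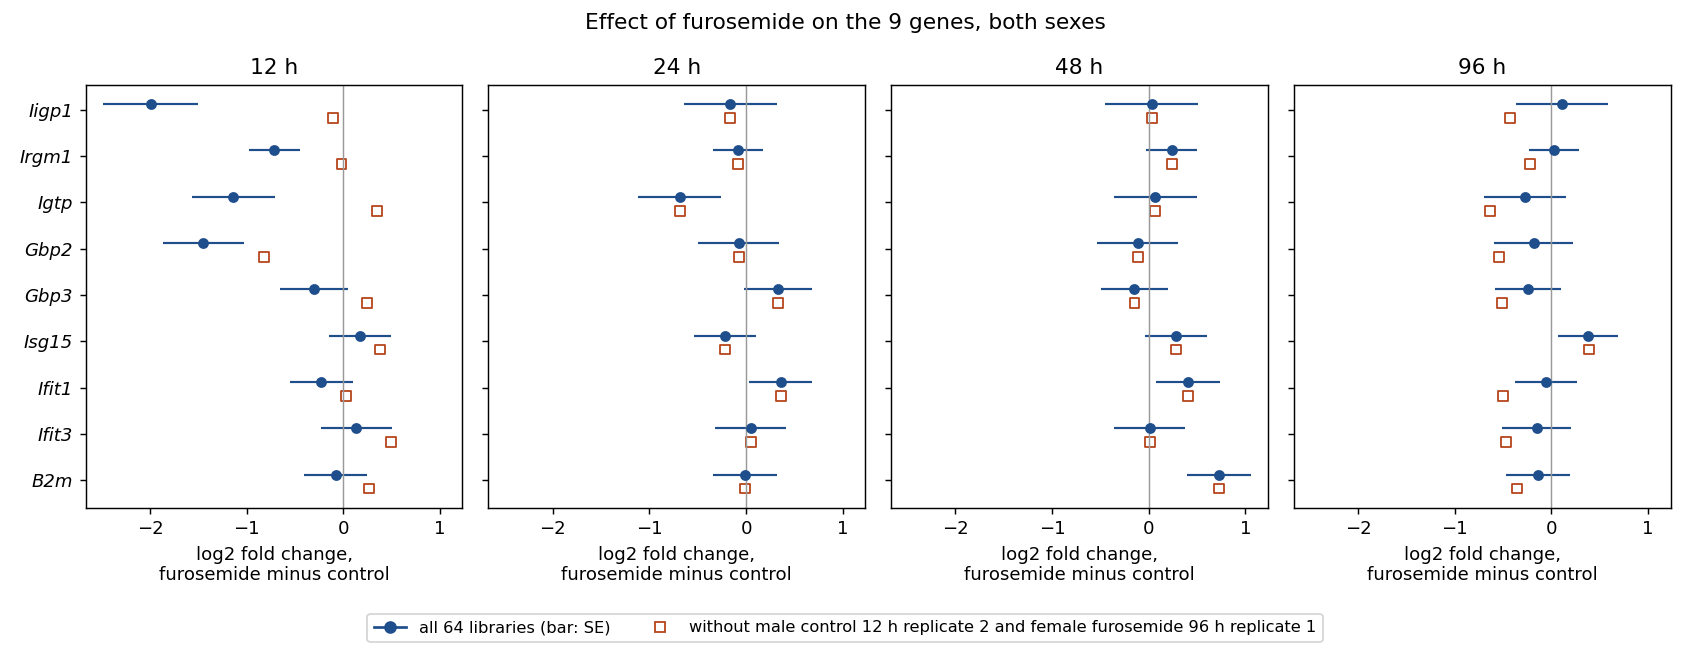
Log2 fold change, furosemide minus control, of the 9 genes at each time over both sexes (x axis; blue points with bars of 1 SE, all 64 libraries; open squares without male control 12 h replicate 2 and female furosemide 96 h replicate 1). At 12 h Iigp1 goes from -1.99 to -0.10, and the 24 and 48 h values keep their place.

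Within males at 12 h, where the control group holds the library with the highest signal, Iigp1 was the only one of the 9 genes called and the only gene called of 41507 (0.00241%). Its log2 fold change was -4.11 (SE 0.76), and it was -0.33 and not called without male control 12 h replicate 2. The call was also lost without any 1 of the 4 male furosemide libraries. In females at 12 h the value was 0.12 (SE 0.68). The difference of the diet effect between the sexes at 12 h (females minus males) was 4.23 (SE 0.99) and did not pass edgeR's test. That test called 0 of 9 genes at each time and 0% of all genes, while at an unadjusted p under 0.05 there were 5 of 9 at 12 h (Iigp1, Irgm1, Igtp, Gbp2 and B2m), 1 at 24 h (Gbp2) and 0 at 48 and 96 h. Of all 41507 genes 2581, 4768, 2344 and 417 had such a p at 12, 24, 48 and 96 h. In the other 7 comparisons within 1 sex edgeR, DESeq2 and limma voom each called 0 of 9, with 1 at an unadjusted p under 0.05 by edgeR (B2m in females at 48 h, where 3042 of 41507 genes were). All-gene calls there reached 0.272% in females at 24 h, whose controls include female control 24 h replicate 3, 0.0120% in males and 0.00723% in females at 96 h, and 0% in the remaining 4. In males at 12 h DESeq2 called 4 of 9 (Iigp1, Irgm1, Igtp and Gbp2) and limma voom 0.

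In the controls, females were compared with males over all 4 times. Iigp1 was the 1 gene of 9 called, lower in females (log2 fold change -1.68, SE 0.35), where 1.24% of all genes were called. Its median was 4.64 CPM over 16 female and 6.83 CPM over 16 male controls, with ranges of 0.863 to 8.09 and 3.14 to 401 CPM that overlap. Without male control 12 h replicate 2 the value was -0.73 and not called, and no other single library ended the call. The 9 values ran from -1.68 to -0.04, with a median of -0.35 against 0.0046 over all genes, and without that library Igtp went from -0.74 to -0.0022.

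Controls at 96 h were compared with controls at 12 h, and here too Iigp1 was the 1 gene of 9 called, where 6.58% of all genes were. Its log2 fold change was -1.93 (SE 0.49), and -0.04 and not called without male control 12 h replicate 2. Without that library 1 gene was again called, but it was Ifit3, with a log2 fold change of 1.36 in place of 1.00 (SE 0.37). Without male control 12 h replicate 1, 3 or 4, Irgm1 was called lower beside Iigp1, and without the 3 libraries that stood apart Iigp1 and Irgm1 were called lower and Ifit3 higher. Ifit3 measured 12.8, 9.19, 14.6 and 15.7 CPM in male and 7.62, 17.7, 12.9 and 16.2 CPM in female controls at 96 h. The 12 h controls other than male replicate 2, which had 15.8 CPM, held 2.97 to 9.56 CPM, which overlaps the 96 h values.

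Several of the 9 genes had higher medians in the 96 h controls than in the earlier ones, without a call. Isg15 had a median of 3.53 CPM at 96 h and 1.85 CPM at 12 to 48 h, Igtp 10.3 and 5.63 CPM, and Ifit3 13.7 and 4.28 CPM. For Gbp2 they were 3.94 and 2.28 CPM, for Gbp3 6.07 and 3.46 and for Ifit1 6.30 and 4.37, while Iigp1 had the lower median at 96 h (5.46 and 5.97 CPM). Irgm1 (24.3 and 23.7 CPM) and B2m (126 at 96 h and 126 CPM before) had like medians. The 96 h libraries were also the deeper ones, so that time on the diet and what set the depth cannot be told apart. Controls at 24 h or at 48 h against 12 h gave 0 of 9 calls (0% of all genes each), with Iigp1 at -2.02 (SE 0.50) and -1.90 (SE 0.49). DESeq2 called 1 (Iigp1) and 0. Unadjusted p-values under 0.05 were held by 4 and 5 of the 9 genes by edgeR, and by 3290 and 2860 of all 41507 genes. Without male control 12 h replicate 2 these Iigp1 values were -0.13 and -0.0078, and 0 of the 9 genes had an unadjusted p under 0.05 in either comparison.

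At each of the 4 times edgeR called 0 of the 119 other pathway genes between the diets over both sexes, with 8, 10, 12 and 2 at an unadjusted p under 0.05 at 12, 24, 48 and 96 h. Of all 41507 genes 3663, 3000, 3926 and 1439 had such a p, so nothing is read from these counts. Within 1 sex edgeR called 0 of the 119 as well, while DESeq2 called 8 in females at 24 h and 2 in males at 12 h (Cxcl10 and Irgm2). The genes with the smallest unadjusted p in each list had adjusted p-values from 0.329 upward. At 12 h these included Irgm2 (log2 fold change -0.97, SE 0.37), the type I target Cmpk2 (0.68, SE 0.36), the class I gene H2-Q7 (-0.61, SE 0.22) and Cxcl10 (-2.11, SE 0.70). Without male control 12 h replicate 2 Irgm2 was -0.02, Cmpk2 0.75, H2-Q7 -0.53 and Cxcl10 -1.09. At 48 h they included Samd9l (0.65, SE 0.22), Psme1, an activator subunit of the proteasome (0.74, SE 0.29), Cd74 (0.71, SE 0.39), Irf7 (0.78, SE 0.33) and the adaptor Mavs (0.54, SE 0.23). The median of the 119 genes at 48 h was 0.22, with 77 of 119 above 0, against -0.10 over all genes, and at 12, 24 and 96 h it was -0.06, -0.06 and -0.10. Without the 3 libraries that stood apart, Psme1, Parp12 and the kinase gene Tyk2 were called higher at 48 h, in a fit that called 930 genes where the fit of all libraries called 1. Ptprc, a marker of all leukocytes, had log2 fold changes of -0.21, -0.11, 0.20 and -0.08 at the 4 times (SE 0.23 each), and none was called.

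Among the 119 genes, 3 (2.52%) differed between female and male controls, where 1.24% of all tested genes did. Ifngr1, the ligand-binding chain of the interferon gamma receptor, was higher in females (0.62, adjusted p = 0.0266), and the class I genes H2-Q6 (-1.23, 0.0357) and H2-Q7 (-0.56, 0.0455) were lower, by edgeR's test with adjusted p-values. These calls were fragile, since 7, 16 and 21 of 32 fits without 1 control library lost them, and the count ranged from 0 (without female control 96 h replicate 2) to 10 lower (without female control 24 h replicate 3, with class II genes and immunoproteasome subunits among them). Near-identical class I genes share reads, so H2-Q6 and H2-Q7 are uncertain as single genes. Between controls of 96 and 12 h, 6 of 119 (5.04%) were called, where 6.58% of all genes were, so the share is near the background. Of them 5 were higher (Ifngr1 0.72, Erap1 0.73, Il10rb 0.98, Irf7 1.11 and H2-DMb1 1.33) and Tapbp, which tethers class I molecules to the peptide transporter, was lower (-1.08). The calls of Il10rb, a receptor chain shared by interferon lambda, and of Tapbp were lost in 0 of 16 fits without 1 library, while the count ranged from 2 (without female control 12 h replicate 4) to 11 (without male control 12 h replicate 2).

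The genes most like the 9, by the Pearson correlation over 64 libraries with the mean of their scaled log2 CPM, are given with the likeness of each. Of 17241 candidates the closest 10 included Psmb8 (r = 0.83), the GTPase Ifi47 (0.77), Irf1 (0.76), Psmb9 (0.73), Ly6c1 (0.71), Ifitm3 (0.69), H2-D1 (0.69), Lgals3bp (0.68) and H2-T22 (0.68). Of these 10, 3 were also among the closest 10 without the highest and the second library (Psmb8, Ly6c1 and Ifitm3). That list was led by Cd200 (0.75), Lgals9 (0.74), Ly6c1 (0.73) and Rsad2 (0.70). By the Spearman correlation over 64 libraries the closest were Ly6c1 (0.79), Ifnar2 (0.77), Plpp1 (0.76) and Psmb8 (0.76). Of each closest 10, 9 by Pearson over 64 libraries, 3 by Pearson without those libraries and 4 by Spearman were in the pathway and marker lists. The points share library and depth, so these values are given as a description with no p.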

How the data were processed

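RNA from dissected early distal convoluted tubules was sequenced in 64 libraries. Per the labels' protocols, libraries were made with SMART-Seq HT and Nextera XT kits, which keep neither strand nor molecule of origin. The deposited table holds estimated counts per gene. Per the submitters' processing notes, Salmon 0.14.10 and build GRCm38.p6 were used, and the annotation release is not given in the sources used here. The expected counts deposited by the authors were rounded to whole numbers, and gene names were matched for 54097 of 54331 identifiers.

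All libraries entered 1 fit with a mean per group (edgeR 4.0.16 quasi-likelihood test, TMM scaling, filterByExpr with a minimum count of 10, Benjamini-Hochberg adjustment over 41507 genes, threshold 0.05, in R 4.3.3). Alternatives used DESeq2 1.42.0, limma voom 3.58.1, RLE scaling, no filter, a replicate block and libraries left out (1 at a time with the first fit's dispersion trend). The scripts were tested on simulated data with 1 fixed spread for all genes. In the comparison of diets at 12 h over both sexes, they called 39 of 100 genes changed by a log2 fold of 1. Of 100 genes changed by a log2 fold of 2 they called 100, with 4 false calls. A gene that was not called may therefore still differ. The 9 genes, the lists of other pathway genes and the marker lists were chosen with earlier results of these data known. The rule for naming genes covered the 9 genes and the genes of each list called or with the smallest p in a comparison of diets. It also covered the 10 most alike genes, Slc12a3, Pvalb, Stat2, Irf1, Irf7, Irf9 and Ptprc. Genes named in single libraries, in comparisons of controls and without the libraries that stood apart were chosen after their values were seen. Some genes of this rule are not reported here. Promoters came from RefSeq. No interval is given for counts, whose depth of 12.71 to 41.07 M counts bounds counting error only. No pair of libraries in a group agreed within sampling noise.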

Additional observations from a re-analysis of the deposited data

Results flagged for a closer look

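Among 144 sets of 4 libraries (9 genes in 16 groups), 22 held a library whose gap to the nearest other one, as a share of the group's range, was above Dixon's critical value, which chance passes in about 1 in 20 groups. Over all tested genes the share of such sets was 14.8%, and these 9 genes were chosen because single libraries carry their signal, so nothing is read from the count. Male control 12 h replicate 2 had 6 of them: Iigp1 400.9 CPM (others 4.155 to 11.74), Irgm1 202.9 (25.53 to 30.19), Igtp 136.2 (3.871 to 6.423), Gbp2 28.02 (3.034 to 5.713), Gbp3 21.72 (3.095 to 5.367) and B2m 594.4 (148.6 to 211). Female furosemide 96 h replicate 1 had 4: Iigp1 23.65 CPM (3.386 to 4.938), Irgm1 51.44 (18.51 to 20.76), Gbp2 10.56 (2.496 to 3.361) and Ifit1 21.68 (3.348 to 6.157). Female control 24 h replicate 3 had 2, B2m at 700.1 CPM (68.73 to 92.65) and Gbp2 at 7.073 (2.189 to 2.366).

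The other 10 lay in 10 different libraries. In 2 the library was the lowest of its group: Iigp1 in female control 12 h replicate 4 with 0.8629 CPM (others 5.978 to 6.748) and Igtp in male control 96 h replicate 3 with 6.477 CPM (10.41 to 10.57). In 8 it was the highest. For Iigp1 this was male furosemide 96 h replicate 3 with 6.4 CPM (3.867 to 3.96), and for Irgm1 female control 12 h replicate 3 with 29.19 (21.93 to 22.78). For Igtp these were female control 48 h replicate 1 with 10.8 CPM (3.174 to 4.206) and female furosemide 24 h replicate 3 with 4.571 (2.899 to 3.109), and for Gbp2 female control 12 h replicate 1 with 8.041 (1.161 to 1.898). Isg15 stood at 3.378 CPM in female furosemide 12 h replicate 2 (1.562 to 1.793), Ifit1 at 10.32 in female furosemide 48 h replicate 4 (3.816 to 4.168) and B2m at 268.8 in male control 96 h replicate 4 (109.9 to 129.4).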

How the results depend on the processing

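Of the 9 genes, the count called in males at 12 h (1) was 4 with DESeq2 and 0 with limma voom and without male control 12 h replicate 2 and female furosemide 96 h replicate 1, a pair chosen after seeing the data; without single libraries it was 0 to 1. The count between female and male controls (1) was 0 with limma voom and without that pair, and 0 to 1 without single libraries. Between controls of 96 and 12 h (1) it was 2 with RLE scaling, 3 with DESeq2, 3 without the 3 libraries of low similarity and 1 to 2 without single libraries. DESeq2 called 1 at 12 h over both sexes and 1 between controls of 24 and 12 h, against 0. The genes behind the similarity (mean above 10 CPM) were chosen after no library fell below 0.75 over all tested genes.

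Of the other pathway genes, the count between female and male controls (3) was 1 with limma voom, 10 without the libraries of low similarity and 0 to 10 without single libraries. Between controls of 96 and 12 h (6) it was 12 with limma voom, 12 with DESeq2, 16 without the libraries of low similarity, 13 without the pair and 2 to 11 without single libraries. In females at 24 h (0) it was 8 with DESeq2 and 0 to 12 without single libraries, in males at 12 h (0) 2 with DESeq2, and at 48 h (0) 3 over both sexes and 2 in females without the libraries of low similarity. Where no construction shows it, the cause was not tested. Of 828 alternative values of 36 fold changes, 24 moved by more than 1 SE.

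The replicate numbers did not pair the libraries: 9 of 32 same-numbered pairs correlated above 0.1 (from -0.703 to 0.561) and 8 correlated best with their own number. With the replicate block 0 of the 9 genes were called in males at 12 h, between the sexes and between controls of 96 and 12 h, and 0 other pathway genes in the last 2. Genes at a few CPM, such as Gbp2 and Isg15, are those whose values depth limits most.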
